A study of Mus musculus with 6 samples.

Results

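The cytosolic ribosomal proteins are the structural proteins of the ribosomes that translate nuclear-encoded mRNAs. They were taken by symbol, as genes named Rpl or Rps with a number and at most a short suffix, together with the stalk proteins Rplp0, Rplp1 and Rplp2 and the laminin receptor gene Rpsa. Of the 41388 genes measured, 84 were members, of which 52 encode large subunit proteins and 32 small subunit proteins. Another 5 symbols fitted the pattern but are annotated as pseudogenes and were left out (Rps4l, Rps12l1, Rpl6l, Rps3a2 and Rps3a3). Fau, which encodes a ribosomal protein fused to a ubiquitin-like protein, and the ribosomal scaffold gene Rack1 lie outside the naming rule and are given beside the members.

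The libraries came from bone marrow neutrophils of C57BL/6 mice, loaded with 250 nM DIBAC4(3), an anionic dye that enters and fluoresces in depolarized cells, and stimulated with 100 nM ionomycin, a calcium ionophore. Depolarized and polarized cells were sorted 2 to 4 minutes after stimulation, 20000 per population, and RNA was isolated and turned into cDNA with a low-input SMARTer kit. All libraries shared the dye, the ionomycin and the strain, no unstimulated library was analysed here, and the labels give neither age nor sex. There were 3 depolarized and 3 polarized libraries, described in the series design as biological replicate pairs and called pairs A, B and C here, in ascending order of the code that both titles of a pair share.

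The small ribosomal subunit decodes the mRNA, and the large subunit joins amino acids into the chain and holds the exit tunnel. Each assembled ribosome holds about equal numbers of copies of most of these proteins, with the acidic stalk proteins Rplp1 and Rplp2 present more than once. Their mRNAs are short and begin with a terminal oligopyrimidine (TOP) tract, through which growth signals set their translation. Mammalian genomes hold many processed pseudogenes of ribosomal protein genes, which are near copies of the spliced mRNA. Neutrophils lower ribosome production as they mature in the bone marrow.

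By pair, from A to C, total counts were 20381489, 19186785 and 16904969 in depolarized libraries, and 19323965, 17031149 and 19613539 in polarized libraries. All 8 defining neutrophil markers had counts, summing to 161559 to 181121 CPM (counts scaled to a fixed library total) in depolarized libraries and 181953 to 221974 CPM in polarized libraries. Of 11 genes of the promyelocyte and myelocyte stages, 9 were called lower in depolarized cells (adjusted p under 0.05 in edgeR), against 0.241% of all genes tested. The 11 genes summed to 4767 to 11927 CPM in depolarized libraries and 12112 to 23298 CPM in polarized libraries. Of 12 proliferation genes, 9 were tested and 5 called lower, against the same 0.241% of all genes tested. The 12 genes summed to 14.6 to 18.5 CPM in depolarized libraries and 25.1 to 52.7 CPM in polarized libraries. Summed B cell markers reached 482 to 1205 CPM in depolarized libraries and 534 to 583 CPM in polarized libraries. Whether cell makeup plays a part in the ribosomal protein values was not tested, and in bulk samples fewer cells of a type and less RNA per cell cannot be told apart.

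Together the members held 347751 of 112441896 counts, a share of 0.309%. Their share was 0.303%, 0.336% and 0.322% in the depolarized libraries of pairs A, B and C, against 0.250%, 0.300% and 0.345% in the polarized libraries. The means were 0.320% ± 0.0164 in depolarized and 0.298% ± 0.0476 in polarized libraries (SD, n = 3 each), and the depolarized values lay inside the range of the polarized ones. The polarized libraries of pairs A and C marked both ends of the range, so the spread among polarized libraries was wider than the difference of the means, 0.0220 percentage points. Within pairs the depolarized library was higher in A and B and lower in C.

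**Figure D1:**
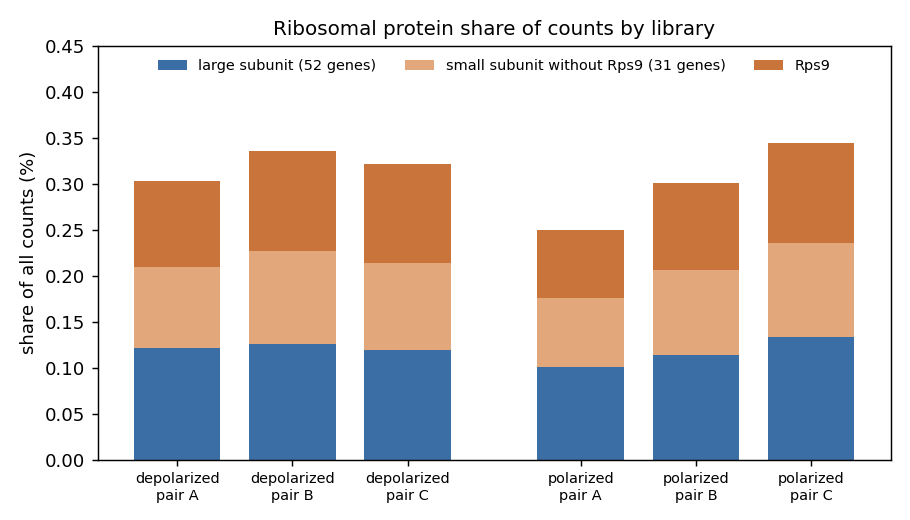
Share of all counts (%) held by ribosomal protein genes in each library, stacked as large subunit genes, small subunit genes without Rps9, and Rps9. The depolarized libraries lie between 0.303% and 0.336%, within the range of the polarized libraries, 0.250% to 0.345%.

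The large subunit genes held 0.122%, 0.125% and 0.120% of counts in depolarized libraries, against 0.101%, 0.114% and 0.134% in polarized libraries. The small subunit genes, although fewer, held more counts, at 0.181%, 0.210% and 0.202% in depolarized libraries and 0.149%, 0.186% and 0.211% in polarized libraries. The ratio of large to small subunit counts was 0.671, 0.597 and 0.592 in depolarized libraries and 0.674, 0.612 and 0.635 in polarized libraries. It averaged 0.620 ± 0.0445 in depolarized and 0.641 ± 0.0314 in polarized libraries (SD, n = 3 each), overlapping ranges. The depolarized library had the lower ratio in each pair, with a difference of -0.00296 in A, -0.0156 in B and -0.0429 in C. That order did not hold on every scale. The difference in pair A was 0.00842 for summed RPKM. It was 0.000603 with the 250 measured genes named as ribosomal protein pseudogenes (symbols with -ps) counted in. The 5 symbols left out above are not among these. The difference in pair B was 0.000925 over members with at least 50% unique coding windows.

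A single gene weighed heavily on that ratio. Rps9, a small subunit protein with a known part in decoding accuracy, held 31.6% of all member counts and 51.5% of the small subunit counts. Without it, the ratio of large to small subunit counts averaged 1.30 ± 0.0746 in depolarized and 1.30 ± 0.0551 in polarized libraries, and the order within pairs was no longer the same, with the depolarized library higher in pair A, lower in pair C and nearly level in pair B. Without Rps9 the members' share was 0.217% ± 0.00903 in depolarized and 0.206% ± 0.0298 in polarized libraries.

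RPKM, in which counts are scaled to library total and gene length, allow levels of different genes to be set side by side, using the exon length in the deposited tables. The members' share of summed RPKM was 0.276%, 0.314% and 0.298% in depolarized libraries, against 0.232%, 0.264% and 0.275% in polarized libraries. On this scale the groups did not overlap, by a narrow gap between the depolarized library of pair A and the polarized library of pair C. The depolarized library was higher by 0.0437, 0.0498 and 0.0229 percentage points in pairs A, B and C. In pair C this is the reverse of the share of counts, where the difference was -0.0227. The large to small ratio of summed RPKM was 0.888 ± 0.0447 in depolarized and 0.914 ± 0.0249 in polarized libraries (SD, n = 3 each). The deposited lengths join all exons of a gene, so Rps15a, with a listed length of 6262 bases and a reference mRNA of 640 bases, has its level understated per length.

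Levels of single members were far from equal. The top 5 genes by counts held 56.4% of member counts and the top 10 held 70.9%. By mean RPKM over the 6 libraries, 5 members were above 100, among them Rps9 at 388, Rpl8 at 150, Rps14 at 136 and Rpl4 at 110. At the low end 21 members were under 1 RPKM, and Rpl10l, a testis paralog of Rpl10, had no count in any library, which allows up to 0.0531 CPM over the depolarized and 0.0536 CPM over the polarized libraries by a floor of 3 counts per group, for counting error only. The order of the members by RPKM was nearly the same in every library, with Spearman's rho of 0.983 to 0.993 over the 15 pairs of libraries (84 genes, a description over genes that share libraries). The large and small subunit genes had median RPKM of 4.19 and 4.28, and the 82 mitochondrial ribosomal proteins, listed for comparison, had a median of 2.00.

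Low levels were more common among genes whose coding sequence recurs elsewhere in the genome annotation. Each coding sequence was cut into all windows of 50 bases. A window was called unique where no other annotated GENCODE M21 gene held it on either strand. Only coding bases were assessed, while counts and RPKM cover all listed exons. The windows of Rpl23a, Rpl24 and Rpl19 below are those that most other genes hold (18 genes for Rpl23a, 5 for Rpl24 and 12 for Rpl19), printed in lower case. The windows of Rps9, Rpl8 and Rpl4 are the first 50 coding bases, found in no other gene and printed in capitals, and all lines read from the start codon side on the coding strand.
Rpl23a: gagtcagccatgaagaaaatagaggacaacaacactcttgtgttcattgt
Rpl24: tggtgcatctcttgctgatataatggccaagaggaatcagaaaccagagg
Rpl19: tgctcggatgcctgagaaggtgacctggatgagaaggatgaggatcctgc
Rps9: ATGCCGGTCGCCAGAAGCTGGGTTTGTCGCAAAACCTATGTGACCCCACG
Rpl8: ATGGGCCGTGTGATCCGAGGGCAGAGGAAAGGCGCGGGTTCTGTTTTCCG
Rpl4: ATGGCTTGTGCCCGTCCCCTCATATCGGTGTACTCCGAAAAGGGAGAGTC
Over all 6 libraries Rpl23a had 6 counts, Rpl24 had 33 and Rpl19 had 40, while Rps9 had 109909, Rpl8 had 14505 and Rpl4 had 17731. Rpl23a, Rpl24 and Rpl19 were picked for low counts among members without a unique window. Rps9, Rpl8 and Rpl4 were picked for high RPKM among members with at least 50% unique windows. The contrast between their counts follows from that choice, so they serve as examples only.

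For 30 members no coding window was unique, and these had a median of 131.5 counts and 0.916 RPKM. The 15 members with up to 10% unique windows had a median of 873 counts and 3.53 RPKM. The 24 members with 10% to under 50% had a median of 2508.5 counts and 16.8 RPKM. The 15 members with at least 50% unique windows had a median of 5319 counts and 35.6 RPKM, and they held 62.2% of all member counts. Over the 84 genes, Spearman's rho between the unique share and mean RPKM was 0.67, and it was 0.63 with windows of 75 bases (a description over genes). With windows of 100 bases it was 0.63 over 83 genes, since Rpl41 is too short to give such a window.

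Exceptions stood on both sides. Rpl41, which encodes the shortest of the proteins, had no unique window and 48.8 RPKM. Its coding sequence of 75 bases gives only 26 windows, against a listed exon length of 1168 bases, so most of its counted sequence was not assessed. Rpl13a, also known in human cells for a role in interferon-dependent translational silencing, had 2.50% unique windows and 28.4 RPKM. Here too most of the counted sequence was not assessed, with 609 coding bases against a listed exon length of 3034. Rpl3l, a muscle paralog of Rpl3, and Rpl39l, a male germ cell paralog of Rpl39, were unique in all windows and had 802 and 6 counts. The windows of Rpl7a occurred in 123 other genes, 120 of them annotated as pseudogenes, those of Rpl29 in 84 and those of Rpl21 in 82, with 81 pseudogenes for each of these. The 250 measured genes named as ribosomal protein pseudogenes held 3642 counts together, 0.00288% to 0.00357% of counts in depolarized and 0.00277% to 0.00364% in polarized libraries. Neither the read length nor the treatment of reads that match several genes is stated in the labels, and their part in these levels was not tested. Overlapping annotation also makes single values uncertain, since 35.4% of the Rpl13a exons and 47.0% of the Rpl24 exons are shared with another gene on the same strand, and 59.7% of the Rpl23a exons with a gene on the opposite strand.

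**Figure D2:**
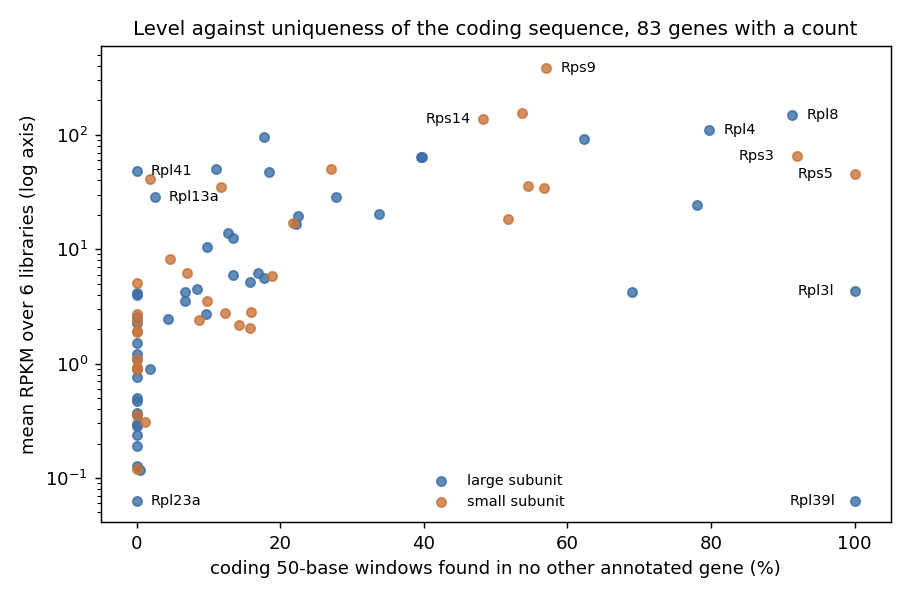
Mean RPKM over 6 libraries (log axis) against the share of coding windows of 50 bases found in no other annotated gene (%), for the 83 members with a count, coloured by subunit. Members with no unique window lie mostly near or under 1 RPKM, with Rpl41 at 48.8, and Rps9, Rpl8 and Rpl4 lie among the more unique members above 100.

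Between depolarized and polarized cells, no ribosomal protein gene was called in either direction. The test was edgeR's quasi-likelihood F test with the pair as a block, over 9971 genes that passed the count filter, with a call at a Benjamini-Hochberg adjusted p under 0.05. Of the 84 members, 74 passed the filter (44 large and 30 small), and 0 of 74 were called higher and 0 of 74 lower, against 0.0802% of all genes tested called higher, 0.241% called lower and 0.321% called in either direction. At an unadjusted p under 0.05 the count was 0 of 74, against 6.58% of all genes tested, and DESeq2 also called 0 of 74 and gave 0 at an unadjusted p under 0.05, with 0.391% of all genes called. The lowest adjusted p of a member in edgeR was 0.923, for Rpl7l1. The median log2 fold change (depolarized minus polarized) was 0.00 over the 74 members, 0.01 over the large and -0.04 over the small subunit genes, and -0.00 over all genes tested. In all, 67 of 74 members lay within 0.5 of 0 on the log2 scale, with a median standard error of 0.24. The 10 members that did not pass the filter included Rps29, Rpl36, Rpl19, Rpl24, Rpl21, Rpl10a, Rpl23a, Rpl39l and Rpl10l.

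Of the small subunit genes, Rps9 (chromosome 7, positions 3703993 to 3706901 in GRCm38) had 931, 1087 and 1085 CPM in depolarized libraries, against 740, 939 and 1094 CPM in polarized libraries. Its means were 1034 ± 89.5 CPM in depolarized and 924 ± 178 CPM in polarized libraries (SD, n = 3 each), with a log2 fold change of 0.11 ± 0.19 (SE). The ranges overlapped, and the polarized library of pair C was the highest of all 6. Rps3, which lines the mRNA entry channel, had 273, 339 and 300 CPM in depolarized and 229, 289 and 314 CPM in polarized libraries (log2 fold change 0.07 ± 0.18). Rps14, lost in a form of myelodysplastic syndrome, had 185, 207 and 194 CPM in depolarized and 151, 179 and 217 CPM in polarized libraries (0.05 ± 0.19). In Rps9, Rps3 and Rps14 the depolarized library was higher in pairs A and B and lower in pair C.

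Of the large subunit genes, Rpl8, which lies by the peptidyl transferase centre (chromosome 15, positions 76904071 to 76906318), had 135, 137 and 143 CPM in depolarized libraries and 102, 118 and 139 CPM in polarized libraries. Its means were 138 ± 3.79 CPM in depolarized and 120 ± 18.5 CPM in polarized libraries, with a log2 fold change of 0.16 ± 0.18. The depolarized libraries were close together and the polarized library of pair C fell among them. Rpl4, which forms part of the exit tunnel, had 163, 157 and 128 CPM in depolarized and 147, 152 and 193 CPM in polarized libraries (-0.19 ± 0.21). For Rpl4 pair C held both the lowest and the highest value. Its pair C difference of -0.82 on the log2 scale was the lowest among the 36 members with a mean of at least 10 CPM. Here and below, pair differences are in log2 CPM after TMM scaling, which adjusts each library total by a factor. The CPM printed are not so adjusted. Thus Rpl8 had a pair C difference of -0.19, although its CPM in pair C were 143 in the depolarized and 139 in the polarized library.

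**Figure D3:**
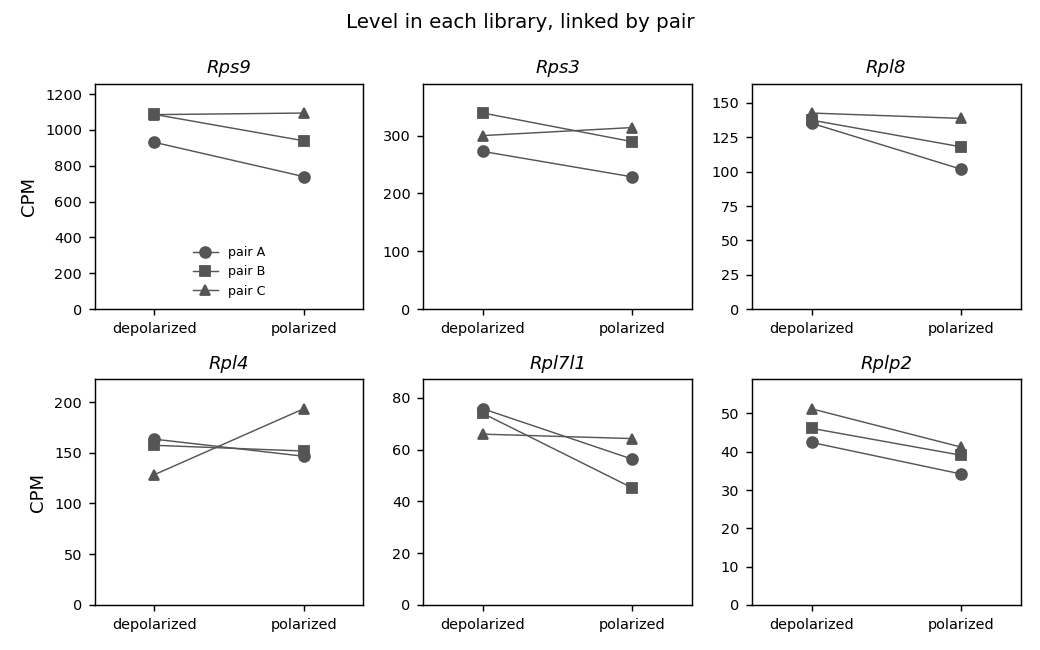
CPM of 6 ribosomal protein genes in depolarized (left) and polarized (right) libraries, with a line joining the libraries of a pair. Rplp2 is higher in the depolarized library of every pair, while the lines of pair C run flat or upwards to the polarized side for Rps9, Rps3 and Rpl4.

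The stalk recruits elongation factors to the ribosome. Its base, Rplp0, had 108, 107 and 110 CPM in depolarized and 87.1, 94.7 and 133 CPM in polarized libraries (log2 fold change 0.01 ± 0.19). Rplp1 averaged 31.6 ± 2.42 CPM in depolarized and 31.6 ± 4.31 CPM in polarized libraries (-0.06 ± 0.19). Its partner Rplp2 had 42.4, 46.1 and 51.2 CPM in depolarized and 34.2, 39.1 and 41.2 CPM in polarized libraries. The Rplp2 groups did not overlap in CPM, with means of 46.6 ± 4.41 in depolarized and 38.2 ± 3.61 in polarized libraries. Its pair differences, which unlike these CPM include TMM scaling, were 0.37, 0.20 and 0.09. The fitted 0.22 ± 0.18 was not called.

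Of the 74 members, 6 had all depolarized CPM values above all polarized ones (Rpl10, Rpl18, Rpl30, Rpl7l1, Rplp2 and Rps6), against 7.28% of all genes tested. In the other direction 2 members did not overlap (Rpl22l1 and Rpl31), against 3.14% of all genes tested. Overlap was judged on CPM without TMM scaling. With TMM scaling, the pair differences of Rpl7l1 were 0.49, 0.67 and -0.19, so it was lower in pair C on that scale. A TMM-scaled difference of the same direction in all 3 pairs was seen in 9 members higher and 4 lower, against 12.9% and 12.1% of all genes tested. Rpl30 and Rpl18 are named here only because their groups did not overlap. Rpl10, which joins the large subunit late in its assembly, averaged 9.49 ± 0.830 CPM in depolarized and 7.56 ± 0.397 CPM in polarized libraries (0.26 ± 0.24).

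The members with the largest and smallest fold changes were all thinly counted or moved in single pairs. Rpl5, which with Rpl11 can bind the p53 regulator Mdm2, had 43, 24 and 16 counts in depolarized and 24, 15 and 10 counts in polarized libraries (log2 fold change 0.66 ± 0.47, adjusted p = 0.986 in edgeR). Rps6, the substrate of the S6 kinases, had 18, 10 and 12 counts in depolarized libraries and 8 counts in each polarized library (0.62 ± 0.59). Rps2 had 86, 143 and 110 counts in depolarized and 95, 102 and 43 counts in polarized libraries, with pair differences of -0.15, 0.27 and 1.31. In the other direction Rpl31 had 14, 7 and 5 counts in depolarized and 14, 12 and 19 counts in polarized libraries (-0.91 ± 0.60, adjusted p = 0.962 in edgeR). Rps23, at the decoding centre, had 7, 11 and 11 counts in depolarized and 11, 17 and 21 counts in polarized libraries (-0.82 ± 0.55), and Rpsa had 8, 11 and 7 counts in depolarized and 9, 12 and 18 counts in polarized libraries (-0.63 ± 0.59). Rpl11 and Rpl12, the lowest tested members by RPKM, had 57 and 69 counts over all libraries and log2 fold changes of -0.13 ± 0.61 and 0.23 ± 0.56.

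**Figure D4:**
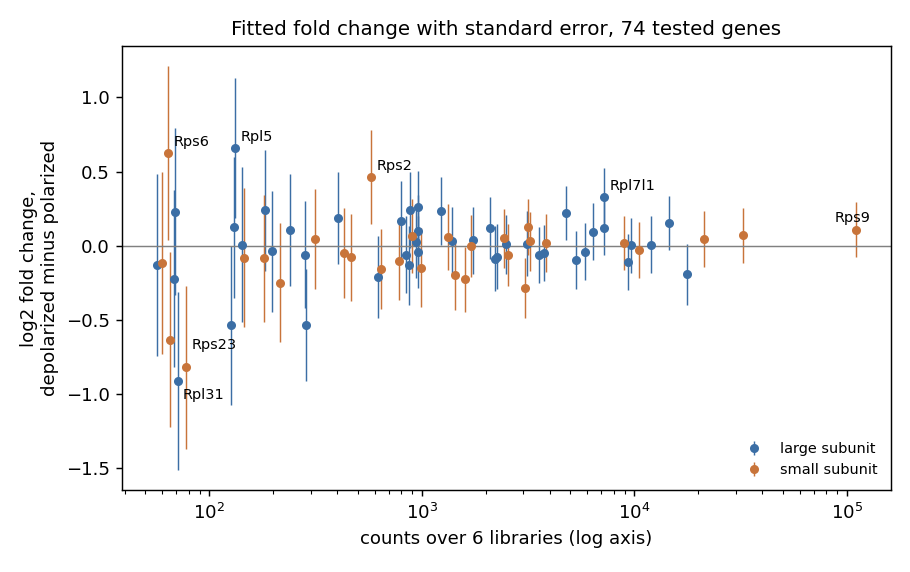
Log2 fold change (depolarized minus polarized) with its standard error for the 74 tested members, against their counts over 6 libraries (log axis), coloured by subunit. The points spread widely at low counts, from -0.91 for Rpl31 to 0.66 for Rpl5, and close in on 0 at high counts.

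Several members have a paralog that can take their place in the ribosome or is made in other tissues. Rpl7l1, which takes part in assembly of the large subunit, had 75.8, 74.0 and 66.0 CPM in depolarized and 56.3, 45.2 and 64.2 CPM in polarized libraries (log2 fold change 0.33 ± 0.20). Rpl7 averaged 52.4 ± 2.84 CPM in depolarized and 51.8 ± 6.92 CPM in polarized libraries (-0.04 ± 0.19). Rpl22, which is needed for alpha-beta T cell development in mice, averaged 12.6 ± 0.958 CPM in depolarized and 11.9 ± 2.64 CPM in polarized libraries (0.03 ± 0.23), and Rpl22l1 averaged 2.10 ± 0.437 CPM in depolarized and 2.91 ± 0.568 CPM in polarized libraries (-0.53 ± 0.38). Rpl3 averaged 7.54 ± 1.51 CPM in depolarized and 7.85 ± 1.02 CPM in polarized libraries, and Rpl3l averaged 7.63 ± 0.356 CPM in depolarized and 6.60 ± 1.57 CPM in polarized libraries. None of these genes was called. The smaller pairs Rpl36a and Rpl36al had log2 fold changes of -0.22 ± 0.60 and 0.24 ± 0.41, and Rpl39 and Rps4x had 0.10 ± 0.24 and -0.16 ± 0.27.

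Among the paralog pairs aligned, coding sequences were 54.0% (Rpl7 and Rpl7l1) to 87.7% (Rpl36a and Rpl36al) identical, with gaps counted as differences. Rps27 and the p53 target Rps27l are shown as an example. Their coding sequences of 252 bases each differ at 60 positions, given in capitals below, and are 76.2% identical.
Rps27: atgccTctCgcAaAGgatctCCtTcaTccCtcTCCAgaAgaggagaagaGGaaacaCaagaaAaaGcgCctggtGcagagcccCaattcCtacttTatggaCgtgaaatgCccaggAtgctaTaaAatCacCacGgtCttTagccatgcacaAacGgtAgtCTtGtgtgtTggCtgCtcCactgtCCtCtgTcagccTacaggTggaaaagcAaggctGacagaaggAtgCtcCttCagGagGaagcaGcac
Rps27l: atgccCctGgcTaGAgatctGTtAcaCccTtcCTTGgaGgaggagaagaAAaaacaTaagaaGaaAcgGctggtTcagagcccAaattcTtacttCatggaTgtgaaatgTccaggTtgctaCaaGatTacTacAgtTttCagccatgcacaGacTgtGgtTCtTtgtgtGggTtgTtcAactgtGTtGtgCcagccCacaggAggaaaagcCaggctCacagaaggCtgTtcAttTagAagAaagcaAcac
The longest identical run in their alignment was 11 bases, shorter than a window of 50 bases. Windows of Rps27 were held by 9 other genes, 8 of them annotated as pseudogenes. Rps27 had no unique coding window and 5.04 RPKM, and Rps27l had 51.7% unique windows and 18.5 RPKM. In CPM, Rps27 averaged 1.28 ± 0.382 in depolarized and 1.29 ± 0.247 in polarized libraries, and Rps27l averaged 15.5 ± 1.31 in depolarized and 14.8 ± 0.915 in polarized libraries.

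With TMM scaling, most members were higher in the depolarized library in pair A and lower in pair C, while pair B was mixed. In pair A 65 of 74 members were higher in the depolarized library, against 49.2% of all genes tested, with a median difference of 0.28 on the log2 scale. In pair B 43 of 74 were higher, against 49.8% of all genes tested, with a median of 0.06. In pair C 13 of 74 were higher, against 50.5% of all genes tested, with a median of -0.34. Among the 36 members with a mean of at least 10 CPM the counts were 36 in pair A, 23 in pair B and 4 in pair C. Their differences in pair A ran from 0.05 to 0.57 while those in pair C ran from -0.82 to 0.11. Large subunit genes had medians of 0.33, 0.07 and -0.34 in pairs A to C, and small subunit genes had 0.24, -0.00 and -0.37. In pair B 28 of 44 large and 15 of 30 small subunit genes were higher in the depolarized library.

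**Figure D5:**
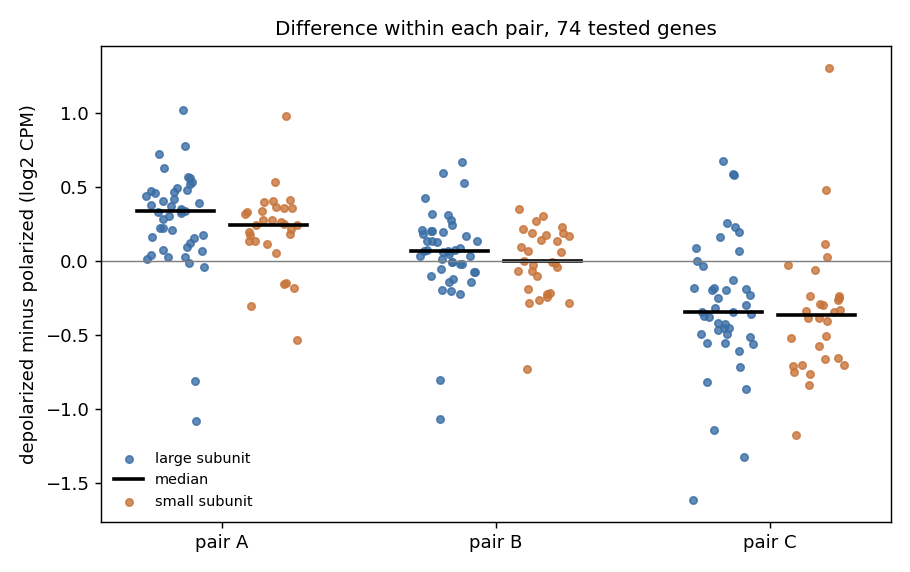
Difference in log2 CPM after TMM scaling (depolarized minus polarized) within each pair for the 74 tested members. Each gene is one point, split by subunit, with black lines at the medians. Most points lie above 0 in pair A and below 0 in pair C, in both subunits.

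A change of scaling shifts all genes of a library alike. With scaling by total counts alone, the median of all genes was shifted to 0.24 in pair C and was -0.07 in pair A and 0.04 in pair B, and the members' medians were 0.22 in pair A, 0.10 in pair B and -0.12 in pair C. The members are short, with a median listed length of 1560.5 bases against 3572 over all genes tested, and length moved with the pair differences (Spearman's rho of -0.17, -0.04 and 0.22 over 9971 genes in pairs A, B and C). With that length trend removed, the members' medians were 0.24, 0.07 and -0.22, with 64, 49 and 18 of 74 above 0. Of all genes tested, 53%, 51.8% and 48.7% were above 0 on that scale. The polarized library of pair C also had the lowest scaling factor of the 6, at 0.876, against 0.967 to 1.082 in the others. Whether library preparation, RNA quality or the cells sorted differed between pairs was not tested.

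The lists of related genes given here also had more genes higher in pair A than in pair C. On the TMM scale, used for all these lists, 49.2%, 49.8% and 50.5% of all genes tested were higher in the depolarized library in pairs A, B and C. Of 67 tested mitochondrial ribosomal proteins, 46 were higher in the depolarized library in pair A, 35 in pair B and 15 in pair C. Of 37 tested ribosome biogenesis genes the numbers were 21, 26 and 11, and of 19 RNA polymerase II and spliceosome genes, listed as a housekeeping comparison, they were 13, 12 and 4. Of 34 translation initiation genes the numbers were 26, 22 and 18, and their median in pair C was 0.08, on the other side of 0 from the members. Of 8 elongation genes 7, 6 and 2 were higher. Of these lists 0 genes were called in edgeR, against 0.321% of all genes tested. An unadjusted p under 0.05 was reached by 1 mitochondrial ribosomal protein, 3 ribosome biogenesis genes, 1 initiation gene and 0 genes of the other lists. Over all genes tested it was reached by 6.58%. The median log2 fold changes of the lists were -0.05, 0.04, 0.02, 0.14 and 0.13, in the order given above. Of the 17 other TOP mRNAs tested, 0 were called and 12, 12 and 4 were higher in the depolarized library in pairs A, B and C. Eef2, the translocation factor and a TOP mRNA, averaged 245 ± 30.0 CPM in depolarized and 191 ± 11.3 CPM in polarized libraries (log2 fold change 0.29 ± 0.19, adjusted p = 0.967 in edgeR). Eef1a1, which brings charged tRNAs to the ribosome, had a log2 fold change of 0.14, Tpt1 of 0.05, Fau of 0.03 and Rack1 of 0.03.

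With pair C left out, 2 members were called higher and 0 lower, against 4.95% of all genes tested called higher, 5.13% called lower and 10.1% in either direction. These were Rpl7l1, with a log2 fold change of 0.58 and an adjusted p of 0.000196 in edgeR, and Rpl8, with 0.33 and an adjusted p of 0.0490. At an unadjusted p under 0.05 there were 10 members without pair C, against 21.9% of all genes tested. Without pair C, Eef2 (0.51, adjusted p = 0.000236 in edgeR) and Eef1a1 (0.40, adjusted p = 0.00894 in edgeR) were also called higher. With 2 pairs left, the fit had 1 residual degree of freedom.

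Promoter sequences are given as a description, and their part in the pair differences was not tested. RefSeq promoters (GRCm38.p6, 250 bases before to 50 after the first listed start) were matched for 64 of 84 members. The tract CTTTCC, a pyrimidine run, is shown in capitals in 4 promoters from 60 bases before to 15 after the listed start. These belong to the 4 matched members with the highest mean RPKM that hold the tract in this stretch. In Rpl4 it lies before the listed start and in the others after it, so a match need not be a TOP start.
Rpl4 (chr9:64173327-64173401, plus strand): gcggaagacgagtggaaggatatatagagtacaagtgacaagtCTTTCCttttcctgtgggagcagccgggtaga
Rpl13a (chr7:45128731-45128805, minus strand): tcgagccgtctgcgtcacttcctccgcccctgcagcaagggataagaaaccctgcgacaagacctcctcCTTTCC
Rps10 (chr17:27635230-27635304, minus strand): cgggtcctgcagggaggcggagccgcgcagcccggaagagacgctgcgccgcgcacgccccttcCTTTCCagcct
Rps27 (chr3:90213634-90213708, minus strand): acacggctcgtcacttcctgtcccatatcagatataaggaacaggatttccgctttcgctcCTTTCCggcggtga
Searched on both strands of the whole window, CTTTCC was found in 48.4% of the members' promoters and 26.3% of all 27025 promoters of the same length. The longer CTCTTTCC, which holds CTTTCC within it, was found in 14.1% of the members' and 3.04% of all promoters. The ETS-type word CCGGAAG was found in 39.1% and 9.12%, the YY1-type word AAGATGG in 14.1% and 6.48%, the SP1-type word GGGCGG in 60.9% and 35.9%, and the TATA-type word TATAAA in 9.38% and 14.2%, each for the members and for all promoters. The members' promoters had a median GC content of 57.5%, against 52.7% over all promoters. These matches describe the letters in the window and say nothing of which factor was bound.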

How the data were processed

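Raw counts, CPM and RPKM per gene were deposited by the authors for each of 6 libraries, 3 per group. Per the submitters' processing notes, bcl2fastq, STAR 2.0.4b, Subread and featureCounts 1.45 were used, with build GRCm38. Counts as deposited are whole and not normalized, the deposited CPM equal the counts scaled by the library total, and the deposited RPKM also divide by the listed exon length. For the annotation release, read length, strand setting and treatment of reads matching several places, nothing is stated in the sources used here. The kit is a low-input SMARTer kit.

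Of 41388 gene IDs, 40254 have a symbol in the reference tables and 40340 are in GENCODE M21. Members and comparison lists were chosen with earlier results of these data known. Groups came from the response label. The pairs rest on the series design text and on the shared code in the titles. Deviations from the group means correlated within pairs at 0.08, 0.27 and 0.03 over 9971 genes and at 0.20, 0.32 and 0.29 over the 74 tested members. Whether the samples are separate animals is not stated beyond that text, so p-values measure the spread between these libraries. The title of the depolarized library of pair B carries run 1, the others run 2, with the meaning not given, and was not modelled.

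Counts were tested with edgeR 4.0.16 in R 4.3.3 (filterByExpr, TMM, quasi-likelihood F test, pair as block, adjusted over all genes tested, threshold 0.05). Log2 CPM for the pair differences used TMM factors and a prior count of 2. Plain CPM, on which group overlap was judged, used library totals only. DESeq2 1.42.0, no block, other scalings, other filters, length trend removal, and each pair left out were alternatives. The scripts were tested on simulated counts. Windows and alignments used GENCODE M21 transcripts and Biopython 1.88, and promoters came from RefSeq. Named genes were the 5 highest and 5 lowest tested members by RPKM, the 3 largest and 3 smallest fold changes, the stalk and paralog genes, Rpsa, and Fau, Rack1, Eef1a1, Eef2 and Tpt1. Rps3, Rpl19, Rpl41, Rpl13a and other genes given to illustrate copies were chosen after their values were seen. No value is given for Rps4l, an annotated pseudogene. Some genes that this rule names are not reported here.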

Additional observations from a re-analysis of the deposited data

How the results depend on the processing

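The call counts of 0 higher and 0 lower members were the same without the replicate block, with DESeq2, with RLE or total count scaling, with TMM factors computed without the members, under no filter or a mean of at least 10 CPM, in the robust fit, with the length trend removed, and without pair A or pair B. Without pair C the count of higher members was 2, ranging from 0 to 2 over the pairs left out. The median log2 fold change over members was 0.00 in the main fit with the replicate block and -0.01 without the block, which changed no call of the members. With the block kept it was 0.07 by total count scaling, 0.04 with the length trend removed, between 0.00 and 0.02 in the other fits on all pairs, and -0.13 without pair A, -0.02 without pair B and 0.16 without pair C, so its sign rests on the pairs included. Of the named genes, 36 values in all changed sign, none of them called in the main fit. By total count scaling Rplp1 was 0.00486, Rps27l 0.0670 and Rpl7 0.0264, and with the length trend removed Rplp1 was 0.0109 and Rps27l 0.0654. Without the replicate block Rplp0 was -0.0418, Rpl22 -0.00656 and Rps27l 0.00136. Rps27l was 0.00188 with DESeq2, 0.00189 with RLE, 0.00065 with TMM factors without the members and 0.0081 with no filter. Over the pairs left out, the log2 fold changes of named genes that changed sign ran as follows: Eef1a1 -0.0823 to 0.40, Fau -0.13 to 0.24, Rack1 -0.0530 to 0.17, Rpl11 -0.51 to 0.29, Rpl22 -0.12 to 0.24, Rpl3 -0.34 to 0.15, Rpl36a -0.51 to 0.30, Rpl3l -0.0711 to 0.42, Rpl4 -0.40 to 0.12, Rpl7 -0.23 to 0.17, Rpl8 -0.0012 to 0.33, Rplp0 -0.18 to 0.26, Rplp1 -0.20 to 0.0318, Rps14 -0.11 to 0.26, Rps27 -0.32 to 0.28, Rps27l -0.11 to 0.0941, Rps9 -0.0317 to 0.28 and Tpt1 -0.11 to 0.15. Genes that kept their sign also moved, such as Rps2 (0.0673 to 0.78), Rpl31 (-1.44 to -0.46), Rpl22l1 (-0.79 to -0.13), Rpl7l1 (0.15 to 0.58), Rpsa (-0.84 to -0.26) and Eef2 (0.11 to 0.51). Rps6 without pair A and Rpsa without pair B did not pass the filter. The cause was not tested. The share difference of 0.0220 percentage points ran from 0.00633 to 0.0443 over the pairs left out, and the ratio difference of -0.0205 from -0.0293 to -0.0093. The share difference was 0.0388 for summed RPKM and 0.0111 over counts without the 10 most abundant genes, which leaves the ratio as it is. Within pair C the share difference was 0.0229 for summed RPKM and -0.0227 for counts. The difference of the means was 0.0220 with the 250 genes named as ribosomal protein pseudogenes (symbols with -ps) counted in. Over members with at least 50% unique windows, the form in which members without a near-identical copy were taken, it was 0.0167. Leaving out Rps9, chosen after seeing the data, gave 0.0110 for the share and -0.000302 for the ratio. With 3 pairs and 2 residual degrees of freedom, small differences were not detectable in these libraries. That held also for well-counted members such as Rps9, with a standard error of 0.19 at 109909 counts. Members such as Rpl31, Rps6 and Rpsa had under 100 counts over all libraries.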
